A study of Rattus norvegicus with 35 samples.

Results

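Ephx1 and Ephx2, the microsomal and the soluble epoxide hydrolase, are 2 of 14217 genes named by a probe set with 1 gene symbol in the liver arrays described here. Both were chosen from measured values, namely the shape of the Ephx2 values over the arrays and the steadier values of Ephx1, and every probe set annotated to either gene was taken. Each gene had 1 such probe set, so no second probe set was at hand to check either of them. The arrays measured liver RNA of male Harlan Sprague Dawley rats that were 7 weeks of age at the start. The rats received 1,2-bis(tribromophenoxy)ethane (BTBPE), a brominated flame retardant, in corn oil by gavage for 5 days, and tissue from the left lobe was taken 1 day after the last dose. The vehicle group received corn oil alone at 0 mg/kg, and the dosed groups received BTBPE at 0.07, 0.69 or 6.88 mg/kg, or at the higher doses of 68 or 680 mg/kg. Each group held 6 rats except that of 68 mg/kg, which held 5, with 1 array per rat and 35 arrays in all.

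Epoxide hydrolases add water to epoxides and turn them into diols. Ephx1 sits in the membrane of the endoplasmic reticulum, where it acts on epoxides that cytochrome P450 enzymes form from foreign compounds, and it is a known target of the nuclear receptor CAR and of the oxidative stress factor NRF2 in rodent liver. Ephx2 is found in the cytosol and in peroxisomes, hydrolyses fatty acid epoxides such as the epoxyeicosatrienoic acids made from arachidonic acid, carries a lipid phosphatase domain besides, and is raised in rodent liver by peroxisome proliferators, which act through PPAR-alpha.

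The values are log2 RMA expression, on which 1 unit is a factor of 2, and all arrays had nearly the same distribution, with medians between 4.71 and 4.79. Of 6 measured hepatocyte markers, all 6 lay above the lowest array median, with means from 13.07 to 14.39. So did all measured markers of Kupffer cells (5 of 5), endothelium (4 of 4) and stellate cells (8 of 8), 2 of 4 of cholangiocytes, 2 of 3 of neutrophils and 1 of 5 of exocrine pancreas (Cela1, at 9.62). None of the measured markers of kidney (0 of 5), adrenal (0 of 3) or lymphocytes (0 of 4) did. The median correlation of an array with the others over all probe sets ran from 0.993 to 0.995. Differences in level between genes dominate such a correlation, so it cannot show whether an array deviated in part of its genes. In whole liver, fewer cells of a type and less RNA per cell cannot be told apart.

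Ephx2 took either a low or a high value on each array, and the high values came from 6 dosed rats spread over all 5 dose groups. In the vehicle group the 6 values of Ephx2 were 5.89, 6.07, 5.88, 5.86, 5.84 and 6.07, in the order of the replicate numbers. At 0.07 mg/kg they were 5.37, 8.74, 8.79, 5.77, 5.73 and 5.74, so replicates 2 and 3 were high and the other 4 lay below all vehicle rats. At 0.69 mg/kg the values were 5.66, 5.63, 5.23, 5.70, 5.65 and 8.58. Here replicate 6 was high and the other 5 lay below all vehicle rats. At 6.88 mg/kg the values were 8.68, 5.84, 5.51, 5.57, 5.74 and 6.07, with replicate 1 high. At 68 mg/kg they were 5.81, 8.78, 5.79, 5.93 and 6.46, with replicate 2 high. At 680 mg/kg they were 5.64, 5.49, 8.81, 5.63, 5.90 and 5.33, with replicate 3 high. The range of every dosed group spanned that of the vehicle group, and a high value was seen in 2 of 6, 1 of 6, 1 of 6, 1 of 5 and 1 of 6 rats from the lowest dose to the highest, against 0 of 6 vehicle rats.

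**Figure D1:**
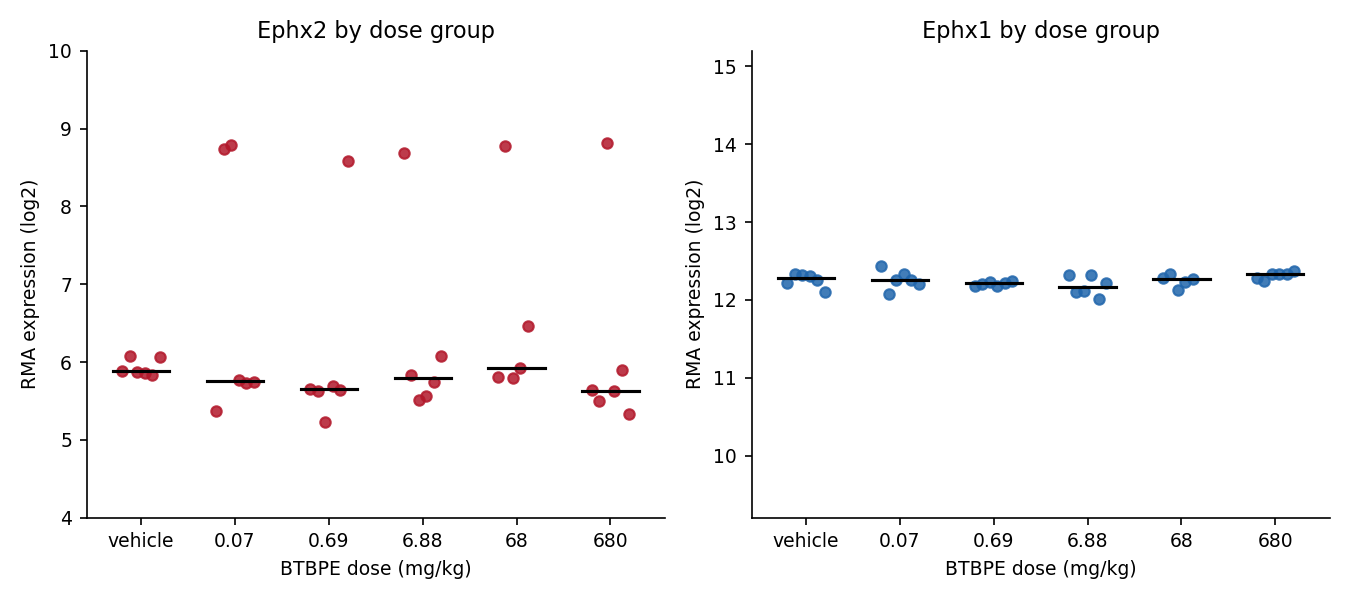
Log2 RMA expression of Ephx2 (left) and Ephx1 (right) against BTBPE dose in mg/kg, with 1 point per rat and a black line at the group median; both vertical axes span the same number of log2 units. Ephx2 points lie either between 5.23 and 6.46 or between 8.58 and 8.81, and all Ephx1 points lie between 12.01 and 12.43.

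No array had an Ephx2 value between 6.46, in replicate 5 at 68 mg/kg, and 8.58, in replicate 6 at 0.69 mg/kg. This gap of 2.12 log2 units is a factor of 4.34. It left 29 arrays below, which spread over 1.23 log2 units, and 6 arrays above, which spread over 0.24. The highest value was 11.99 times the lowest. The arrays on either side of the gap were defined by the measurement itself, so their means were not compared.

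Ephx1, in contrast, was a bright probe set with a small spread. Its vehicle values were 12.22, 12.33, 12.32, 12.31, 12.25 and 12.11. At 0.07 mg/kg they were 12.43, 12.07, 12.25, 12.34, 12.26 and 12.20. At 0.69 mg/kg they were 12.17, 12.21, 12.23, 12.18, 12.22 and 12.24. These 3 groups overlapped, and the group at 0.69 mg/kg was the tightest of all, with an SD of 0.03 (n = 6). At 6.88 mg/kg the values were 12.32, 12.10, 12.12, 12.31, 12.01 and 12.22. At 68 mg/kg they were 12.28, 12.33, 12.13, 12.23 and 12.27. At 680 mg/kg they were 12.28, 12.24, 12.33, 12.34, 12.33 and 12.37, so that 5 of 6 lay above the vehicle mean and 3 above every vehicle rat. All dosed groups overlapped the vehicle group, and the whole range over 35 rats was a factor of 1.34.

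On the arrays with high Ephx2 the level of Ephx1 was 12.24 (0.69 mg/kg, replicate 6), 12.32 (6.88 mg/kg, replicate 1), 12.07 and 12.25 (0.07 mg/kg, replicates 2 and 3), 12.33 (68 mg/kg, replicate 2) and 12.33 (680 mg/kg, replicate 3). All of these lay inside the range of the other 29 arrays, from 12.01 to 12.43. Because Ephx2 fell into separate clusters, the relation of the 2 genes was computed within each. Within the 29 arrays the values had a Pearson r of -0.14 (permutation p = 0.475) and a Spearman rho of -0.09 (permutation p = 0.639), and r was -0.24 without the 2 arrays farthest from the median. Within the 6 arrays r was 0.17 (exact permutation p = 0.686) and rho 0.49 (exact permutation p = 0.356), and r was 0.87 over the 4 arrays left without the 2 farthest. After Benjamini-Hochberg adjustment over the 8 relations computed, the smallest permutation p was 0.786, so neither cluster showed a relation between the 2 hydrolases beyond its spread.

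**Figure D2:**
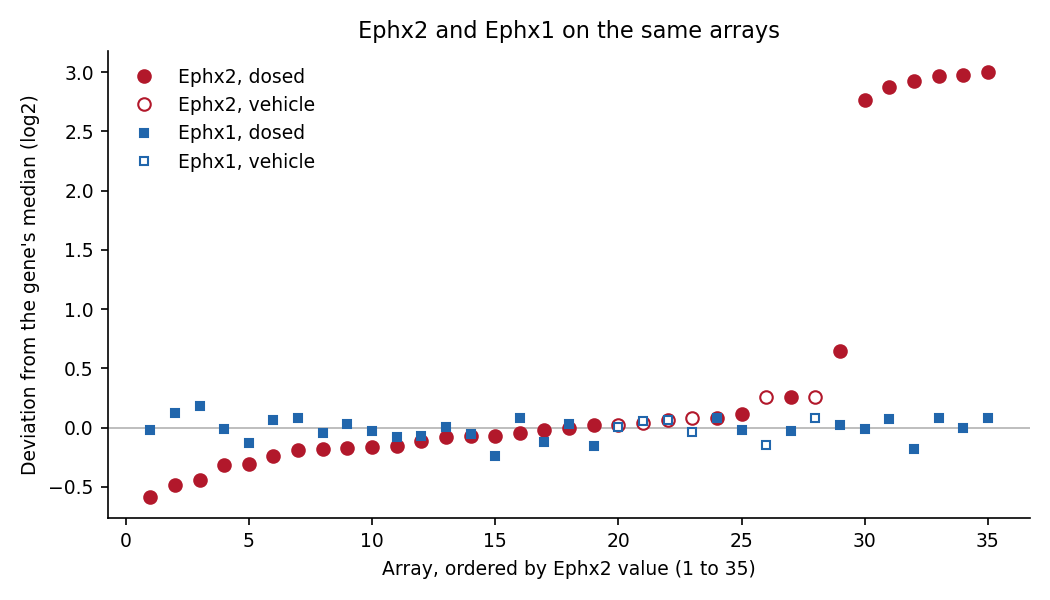
Deviation of Ephx2 (red circles) and Ephx1 (blue squares) from each gene's median in log2 units, over the 35 arrays ordered by their Ephx2 value; open symbols are vehicle rats. The Ephx2 points jump by 2.12 between the 29th array and the next, where Ephx1 shows no step.

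Among all 31042 probe sets tested, the Ephx2 gap ranked 6 when at least 3 arrays were required on each side. The median gap was 0.0598 and the 99th percentile 0.228, and 8 probe sets had a gap of at least 1.5. Besides Ephx2 these were both probe sets of Ugt2b, a glucuronosyltransferase (7.26 and 5.39), Abhd3, a lipid hydrolase of the same structural superfamily as Ephx2 (4.14), Ubd, a ubiquitin-like modifier (1.92), RT1-Bb, an MHC class II chain (1.504), and 2 probe sets without a single gene symbol (4.99 and 2.40). The arrays on the smaller side of each gap were counted against the 6 with high Ephx2. The 3 arrays set apart by each Ugt2b probe set and the 3 set apart by Abhd3 held 0 of the 6 arrays with high Ephx2, while those set apart by Ubd held 2 among 9, by RT1-Bb 1 among 10, and by the unnamed probe sets 1 among 9 and 2 among 10. With 6 of 35 arrays high in Ephx2, counts this small do not tell whether the splits are related. The SD of Ephx2 over all arrays was 1.16, rank 12 of all probe sets, and its SD within groups was 1.22, rank 10, where the medians over all probe sets were both 0.144. For Ephx1 the SD over all arrays was 0.0928, higher than that of 9.03% of probe sets, and its mean of 12.24 was brighter than that of 99.4% of them. A small SD was not particular to Ephx1 among bright probe sets. Cyp2b3, at a mean of 12.63, had an SD of 0.0630, while Cyp2c7, at 12.64, had 0.192. The largest gap of Ephx1 was 0.05, rank 21380.

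**Figure D3:**
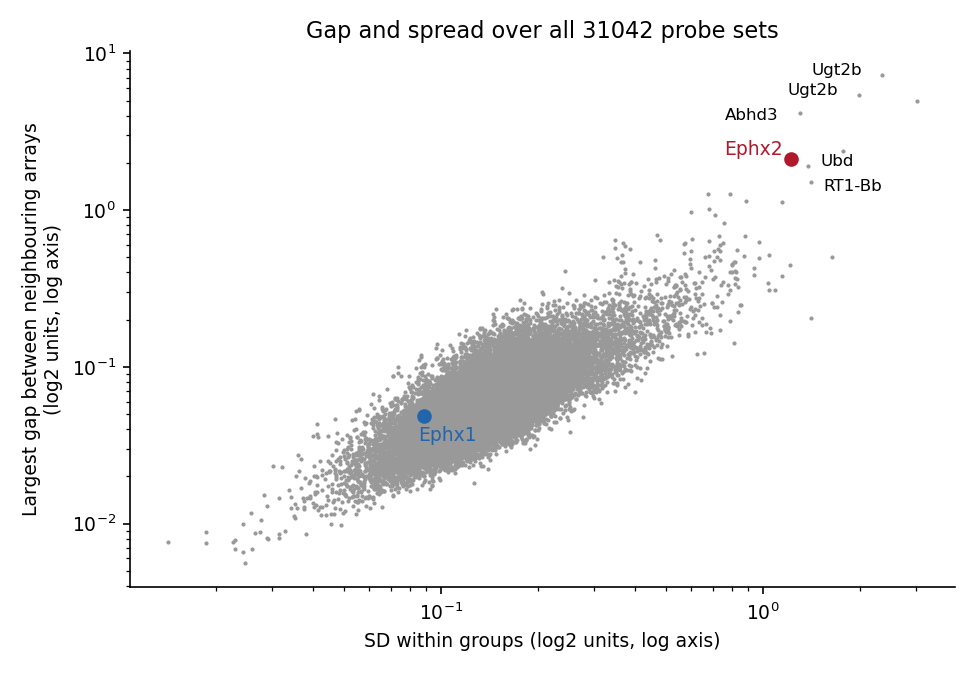
Largest gap between neighbouring arrays (with at least 3 arrays on each side) against the SD within groups, both in log2 units on log axes, with 1 grey point per probe set. Ephx2 (red, gap 2.12) lies with the few probe sets of Ugt2b, Abhd3, Ubd and RT1-Bb at the upper right, and Ephx1 (blue, gap 0.05) lies within the cloud.

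No other probe set was higher on all 6 arrays with high Ephx2 than on all other 29, and 0 were lower on all 6. The closest was 1 probe set without a single gene symbol, which shared 5 of its 6 highest arrays with Ephx2. In the other direction 1 unnamed probe set and Col9a1, a chain of collagen IX, shared 5 of their 6 lowest arrays. All of these probe sets were dim, with no value above 3.54 on any array. Markers of other cell types and of RNA quality were read on the same arrays. For 10 of 12 marker lists the mean level on the 6 arrays lay inside the range of the other 29. The exceptions were lymphocyte markers, which reached down to 3.88 on the 6 arrays and to 3.97 on the others, and periportal hepatocyte markers, which ran from 10.28 to 10.70 on the 6 and from 10.28 to 10.65 on the others. Of the 6 arrays, 1 lay above the median of all arrays for Kupffer cell markers, 1 for stellate cell markers and 1 for exocrine pancreas markers, and 5 did for periportal and 5 for adrenal markers. Over 35 arrays, r with Ephx2 ran from -0.30 for the stellate cell markers to 0.31 for the kidney markers, and the part of these markers in the Ephx2 values was not tested. The difference between the 3 prime and 5 prime control probe sets of Actb, a sign of RNA degradation, ran from 1.10 to 1.22 on the 6 arrays and from 1.02 to 1.37 on the other 29.

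The comparison of each dose with vehicle asked whether BTBPE changed either gene, at the false discovery rate of 5% that the study's design names. Neither gene passed limma's moderated test with Benjamini-Hochberg adjustment over all probe sets at any dose. Nor did any other probe set: 0% of 31042 probe sets were called at 0.07 mg/kg, 0% at 0.69, 0% at 6.88, 0% at 68 and 0% at 680 mg/kg. The numbers with an unadjusted p under 0.05 in the same limma fit were 1130, 981, 1438, 1205 and 1538, and an unmoderated analysis of variance also called 0. For the trend over dose rank the share called by limma was 0% and for the F test over any dose 0%, with 1549 and 1194 probe sets at an unadjusted p under 0.05.

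Ephx1 stayed within narrow bounds of vehicle at every dose. Its mean was 12.25 ± 0.08 (SD, n = 6) in vehicle and 12.31 ± 0.05 (SD, n = 6) at 680 mg/kg. That difference was 0.060 on the log2 scale, a fold of 1.04 with a 95% confidence interval from 0.963 to 1.13 (limma adjusted p = 0.994). The folds from 0.07 to 68 mg/kg were 1.00 (0.926 to 1.08), 0.969 (0.895 to 1.05), 0.9500 (0.878 to 1.03) and 0.996 (0.917 to 1.08). The outermost limits of these intervals were 1.13 and 0.878. Each interval holds for its own dose and shares the vehicle rats, so the limits are no joint bound over all doses. The trend was 0.01 per dose rank (limma adjusted p = 0.996). Leaving out 1 rat turned the direction at 0.07 mg/kg, where the log2 difference then ran from -0.032 to 0.040, and at 68 mg/kg, where it ran from -0.036 to 0.025.

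The Ephx2 means were all above that of vehicle, and in 3 groups the sign rested on 1 rat. The mean was 5.93 ± 0.11 (SD, n = 6) in vehicle and 6.69 ± 1.61 (SD, n = 6) at 0.07 mg/kg, a fold of 1.69 with a 95% confidence interval from 0.677 to 4.22 (limma adjusted p = 1.00). The folds at 0.69, 6.88, 68 and 680 mg/kg were 1.10 (0.441 to 2.75), 1.23 (0.494 to 3.08), 1.54 (0.589 to 4.01) and 1.15 (0.460 to 2.87), with limma adjusted p values between 0.999 and 1.00. These intervals were far wider than those of Ephx1. Without replicate 6 the log2 difference at 0.69 mg/kg went from 0.14 to -0.36, without replicate 1 that at 6.88 mg/kg from 0.30 to -0.19, and without replicate 3 that at 680 mg/kg from 0.20 to -0.34. At 0.07 mg/kg it went from 0.76 to 0.34 without replicate 3 and to 0.35 without replicate 2, and at 68 mg/kg from 0.62 to 0.06 without replicate 2. No call changed. The trend was 0.02 per dose rank (limma adjusted p = 0.996).

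**Figure D4:**
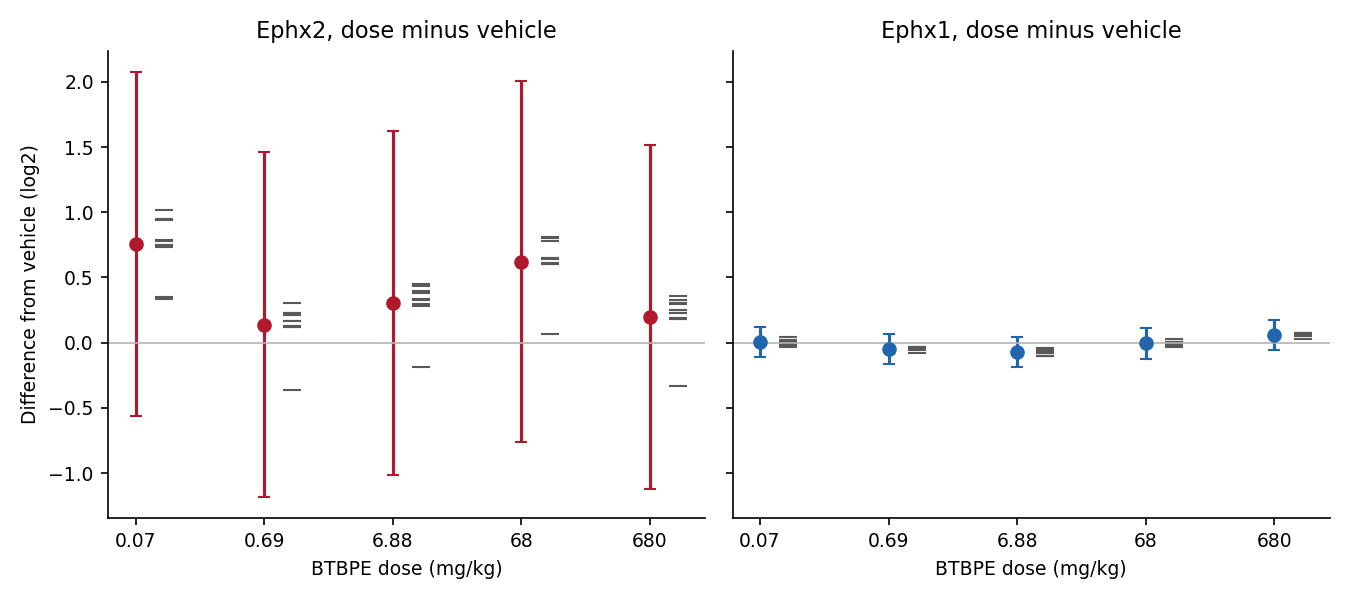
Mean difference from vehicle in log2 units at each BTBPE dose in mg/kg for Ephx2 (left) and Ephx1 (right), with bars for the 95% confidence interval of the limma fit and grey dashes for the value with each rat left out in turn. All intervals include 0, and dropping 1 rat carries Ephx2 below 0 at 0.69, 6.88 and 680 mg/kg.

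The medians of Ephx2, which the high arrays move little, pointed the other way at 4 of 5 doses. They differed from the vehicle median by -0.13, -0.23, -0.095, 0.045 and -0.25 from the lowest dose to the highest. In exact two-sided rank-sum permutation tests, chosen after the values were seen, p was 0.394, 0.0649, 0.310, 0.931 and 0.240, and the smallest after adjustment over the 5 doses was 0.325. Of all 29 dosed rats, 19 had less Ephx2 than any vehicle rat and 7 had more, and 3 lay within the vehicle range. Dosed rats together had a median 0.14 lower and a mean 0.40 higher than vehicle (-0.14 and 0.40 on the log2 scale), with an exact rank-sum permutation p of 0.172. So the pooled mean and the pooled median of Ephx2 differed from vehicle in opposite directions. The rank-sum test compares ranks, and the pooled mean difference had no test of its own. For Ephx1 the medians differed by -0.027, -0.065, -0.11, -0.0081 and 0.049, and the smallest adjusted exact permutation p was 0.449.

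The change of Ephx2 minus that of Ephx1, taken rat by rat, was compared between each dose and vehicle. It was 0.75, 0.18, 0.38, 0.63 and 0.14 from the lowest dose to the highest, with exact two-sided permutation p values of 0.455, 1.00, 0.749, 0.234 and 0.996, all 1.00 after adjustment over the 5 doses. Such a test can reach 0.00216 with 6 rats against 6 and 0.00433 with 5 against 6. Ephx1 varied so little that this change nearly repeats that of Ephx2 alone, 0.76 at 0.07 mg/kg and 0.62 at 68 mg/kg. Both genes were also chosen from these values, so this is no separate test of a different response. Each rat was also left out in turn. Without the single high array the difference at 0.69 mg/kg became -0.31 (adjusted exact permutation p = 0.0216), past the threshold. That array is singled out by the Ephx2 value that the test compares, so this p does not support a difference. At 680 mg/kg it became -0.39 (adjusted exact permutation p = 0.0649), at 6.88 mg/kg -0.085, and at 68 mg/kg 0.091. At 0.07 mg/kg it became 0.31 without replicate 2 and 0.33 without replicate 3.

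The genes that varied most like each hydrolase were ranked by Pearson r of deviations from group means over 35 arrays, as a description, among probe sets with 1 gene symbol. Over all probe sets, named or not, r with Ephx2 ran from -0.64 to 0.64 and r with Ephx1 from -0.71 to 0.66. For Ephx2 the highest of the named genes were Ccdc57 (0.57), Chdh, the choline dehydrogenase of mitochondria (0.56), Mmp2, a matrix metalloproteinase (0.55), Selenop, the selenium carrier of plasma (0.55), Izumo4 (0.54), Cyb561a3 (0.54), Dnajc15, a mitochondrial chaperone (0.53), and Nrn1 (0.53). The lowest were Col9a1 (-0.64), Svs6 (-0.61), Slc25a41, a mitochondrial carrier (-0.61), and Msra, a methionine sulfoxide reductase (-0.60). These values rested largely on the 6 high arrays. Within the other 29 they were 0.26, 0.38, 0.19, 0.26, 0.08, 0.03, 0.43 and 0.17 for the 8 highest and -0.10, -0.13, -0.09 and 0.05 for the 4 lowest. Some of these genes had other probe sets that did not follow Ephx2. Over 35 arrays the lowest r of another probe set was 0.05 for Mmp2, 0.11 for Selenop and -0.04 for Izumo4. Ccdc57 (mean 2.51), Mmp2 (4.11), Nrn1 (4.37), Col9a1 (2.72), Svs6 (2.06) and Slc25a41 (3.87) were dim, below the lowest array median of 4.71. The arrays are the same for all genes, so any difference between arrays is shared by all of these correlations.

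Within the 29 arrays below the gap, a choice made after the values were seen, other genes led. Among probe sets with 1 gene symbol the highest r with Ephx2 were those of Adamts7, a secreted metalloproteinase (0.75), Smarcd2, a chromatin remodelling subunit (0.73), Ubr1, a ubiquitin ligase (0.72), and Nuak2, a kinase (0.72), where the highest of all probe sets was 0.79. The lowest were those of Nexn, an actin-binding protein (-0.79), and Clta, a clathrin light chain (-0.69). Over all 35 arrays r for the same genes was 0.27, 0.08, 0.23, 0.29, -0.30 and 0.32. Nexn was dim, with a mean of 2.51.

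For Ephx1 the highest r of named genes over 35 arrays were those of Nop16, a nucleolar protein (0.62), Jagn1, of the endoplasmic reticulum (0.62), Bcs1l, an assembly factor of respiratory complex III (0.61), Acp1 (0.60), Srsf10, a splicing factor (0.59), Psmg2, a proteasome assembly chaperone (0.59), Cep57l1 (0.59) and Dus1l, which modifies transfer RNA (0.59). The lowest were those of St8sia4, a sialyltransferase (-0.64), Mapk15 (-0.60), A2ml1 (-0.60) and Fam25a (-0.59). These lowest genes were dim, with means from 3.30 (A2ml1) to 4.59 (Fam25a), under the lowest array median of 4.71. Among other probe sets of the named genes the lowest r was 0.07 for Srsf10, -0.05 for Cep57l1 and 0.49 for Acp1. Another probe set of St8sia4 had an r of -0.30. An absolute r of at least 0.5 was reached with 188 probe sets for Ephx1 and 59 for Ephx2, of 31041, or 0.61% and 0.19%. The share that unrelated probe sets would reach was not computed. These counts therefore do not show that any gene varied with either hydrolase beyond chance. The median value of the array had an r of -0.36 with Ephx1, and its part in these correlations was not tested. With each array centred on its median the 8 highest ran from 0.64 to 0.70.

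The genes next to each hydrolase on the chromosome did not share the Ephx2 split. In the order of the RefSeq annotation of assembly GRCr8, the 6 nearest measured genes on one side of Ephx2 were Adam2, Gulo (the last step of vitamin C synthesis), Clu (the secreted chaperone clusterin), Scara3, Ccdc25 and Esco2. On the other side they were Chrna2 (a nicotinic receptor subunit), Ptk2b, Trim35, Stmn4, Adra1a and Dpysl2. Their r with Ephx2 ran from -0.29 for Dpysl2 to 0.31 for Clu, their largest gap was 0.11, and their SD ran from 0.0974 to 0.226 against 1.16 for Ephx2. Of the neighbours of Ephx1 (Tmem63a, Sde2, LOC102553824, Acbd3, Lin9 and Parp1 on one side and Nvl, Cnih4, Wdr26, Lbr, Enah and Srp9 on the other), Nvl had the highest r with it, 0.46, and Cnih4 the lowest, -0.15.

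**Figure D5:**
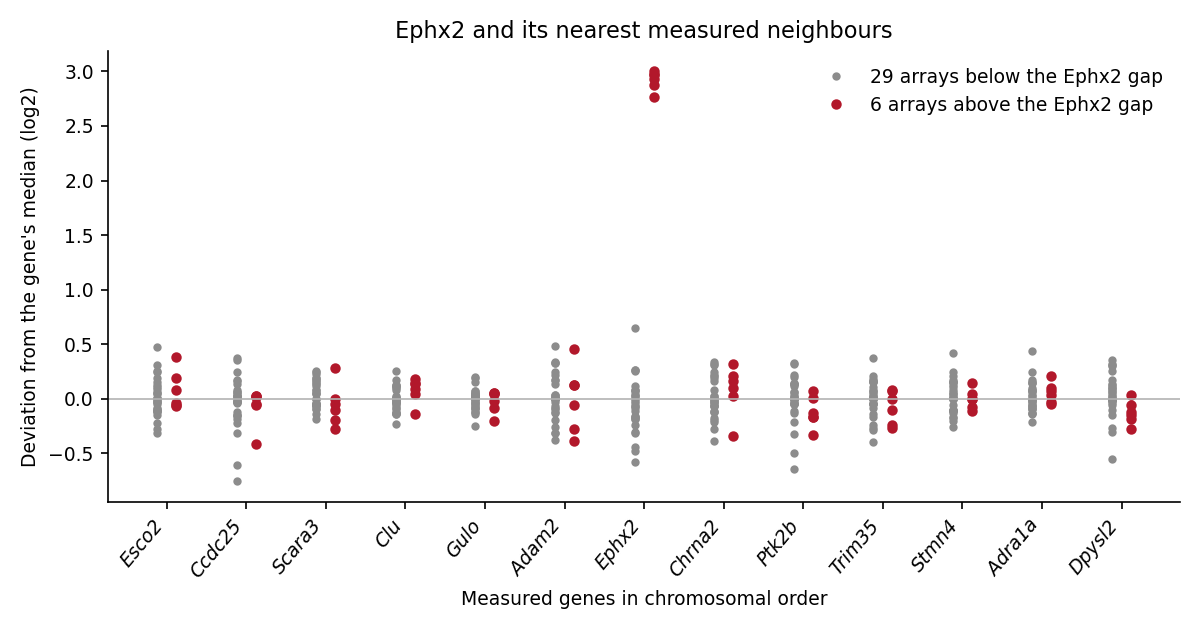
Deviation from each gene's median in log2 units for Ephx2 and its 12 nearest measured neighbours, in chromosomal order, with the 6 arrays above the Ephx2 gap in red and the other 29 in grey. Only Ephx2 shows the split. Among the 12 neighbours the largest gap was 0.11, and Esco2, Scara3, Adam2, Chrna2, Ptk2b and Adra1a were dim.

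Related enzymes and the genes of the pathways that are known to govern both hydrolases were read from 5 lists, in which 0 genes were called by limma at any dose. The 5 doses share the vehicle rats, so their counts are not independent of each other. Some genes stand in several lists, among them Cyp4a1, Cyp4a3, Cyp2c6v1 and Gstm1. The lists are therefore not separate from each other, here and in the correlations below. Of 5 related hydrolases 4 were measured, and Ephx3 was not analysed here. Ephx4 was dim at a mean of 2.60. Lta4h, which makes leukotriene B4, had folds from 0.946 to 1.03, Mest from 0.981 to 1.16, and Abhd6, a lipase, from 0.958 to 1.01. Of 25 measured epoxygenases and other arachidonic acid enzymes, some of which form the substrates of Ephx2, the number higher than vehicle was 16, 15, 11, 12 and 13 from the lowest dose to the highest. Cyp2c11 and Cyp2c23, epoxygenases of rat liver, had folds from 1.01 to 1.05 and from 1.01 to 1.04, Cyp2c22 from 0.918 to 1.03 and Cyp2c13 from 1.02 to 1.05.

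Of 19 measured CAR and PXR targets, 5, 7, 5, 7 and 10 were higher than vehicle, with list medians from -0.07 to 0.00 on the log2 scale. Cyp2b1 and Cyp2b2, the best known CAR targets in rat liver, had no probe set of 1 symbol and were not analysed here. Cyp2b3 is of the same family but cannot stand in for Cyp2b1 and Cyp2b2 as a sign of CAR activity. Its folds ran from 0.985 to 1.03, and those of Cyp2c6v1 from 0.992 to 1.05. The folds of Cyp3a23-3a1, a drug-metabolising P450 and PXR target, ran from 0.903 to 1.03, and those of Cyp3a2 from 0.972 to 1.03. Of 18 measured NRF2 targets, 11, 11, 4, 13 and 13 were higher. The folds of Nqo1, a quinone reductase, ran from 0.928 to 1.35, those of Gclc and Gclm, the subunits of the enzyme that starts glutathione synthesis, from 0.973 to 1.07 and from 0.944 to 1.01, and those of Hmox1, the heme oxygenase, from 0.980 to 1.10. Of 32 measured PPAR-alpha targets, 25, 29, 22, 21 and 21 were lower than vehicle, with list medians of -0.07, -0.10, -0.04, -0.02 and -0.03. By comparison, 48.3% to 49.5% of all probe sets were higher, and the medians of all probe sets were 0.00. Genes of a list can vary together in the same rats, so these counts are not independent observations and were not tested. Cyp4a1 and Cyp4a3, fatty acid hydroxylases, had folds from 0.820 to 0.945 and from 0.904 to 0.973, and Ehhadh and Hsd17b4, of peroxisomal fatty acid oxidation, from 0.932 to 1.03 and from 0.934 to 1.00.

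Across arrays, Ephx1 had a positive r with 15 of 18 NRF2 targets (median 0.20), led by Txnrd1, the thioredoxin reductase (0.49), and with 13 of 19 CAR and PXR targets (median 0.09), led by Gstm1, a glutathione transferase (0.36). Over all probe sets 46.4% were positive, with a median of -0.02. With each array centred on its median the counts were 18 of 18 and 15 of 19, against 58.8% of all probe sets. Within the 29 arrays below the gap, Ephx2 had a positive r with 27 of 32 PPAR-alpha targets (median 0.20), led by Crat, the carnitine acetyltransferase (0.62), where 48.7% of all probe sets were positive. Without the 2 arrays farthest from their group mean, replicate 3 at 0.69 mg/kg and replicate 5 at 68 mg/kg, the count was 24 of 32 (median 0.16). The mean of the periportal markers had an r of 0.41 with Ephx2 on the same 29 arrays, and its part was not tested. Over all 35 arrays the count for Ephx2 was 17 of 32. Other lists also leaned to positive r with Ephx2 within the 29 arrays: 19 of 25 epoxygenases and arachidonic acid enzymes (median 0.15) and 12 of 19 CAR and PXR targets (median 0.10), of which Abcb1a, a drug efflux pump, reached 0.67. Over all 35 arrays these counts were 18 of 25 and 14 of 19, where 51.1% of all probe sets had a positive r with Ephx2. With NRF2 targets Ephx2 was positive for 3 of 18 within the 29 arrays (median -0.09), with Hmox1 at -0.55, but for 13 of 18 over all 35 arrays (median 0.09). The sign for this list thus turned with the 6 high arrays.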

How the data were processed

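Liver RNA was hybridised to single-colour Affymetrix 3 prime arrays, 1 per rat. RMA and the affy package are named in the submitters' processing notes, without versions. The values deposited by the authors are log2 expression per probe set, with the base taken from RMA's convention. RMA gives arrays nearly equal distributions, so a shift of most transcripts would be reduced. Of 31099 probe sets, 57 controls were left out. Genes were named from the platform annotation (20826 probe sets with 1 symbol, 436 with several, 9780 with none). RefSeq's GRCr8 gene table served only for symbols and gene order. The number of columns of no sample was 0.

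A one-way model over 35 arrays was fitted with limma 3.58.1 in R 4.3.3, and each dose was contrasted with vehicle, with Benjamini-Hochberg adjustment over 31042 probe sets at 0.05. The series design names R/maanova, which was not used. The fit was tested on simulated data. Exact tests and correlations used scipy 1.17.1, with 100000 permutations where groups were large. Named are both members, the 8 highest and 4 lowest correlates, 6 neighbours on each side, and the first 4 measured genes of each list; the other genes, among them those with large gaps, those of the 29 arrays below the gap and those leading a list, were named after their values were seen. The members and lists were chosen with earlier results of these data known. Alternatives were another quantile normalisation, median centring, a filter on dim probe sets (15706 left), a replicate block, a robust trended prior, unmoderated analysis of variance, fits of 1 dose with vehicle, and each array left out. Rank tests and the split at the Ephx2 gap were added after the data were seen. The planned correlation of both genes over 35 arrays was replaced by values within each cluster.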

Additional observations from a re-analysis of the deposited data

Results flagged for a closer look

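In 4 groups 1 rat had an Ephx2 value far from the others of its group by Dixon's criterion at 95%: 8.58 in replicate 6 at 0.69 mg/kg, 8.68 in replicate 1 at 6.88 mg/kg, 8.78 in replicate 2 at 68 mg/kg and 8.81 in replicate 3 at 680 mg/kg. At 0.07 mg/kg 2 rats were high together, so neither stood alone. No Ephx1 value met the criterion in any of the 6 groups. Chance meets this criterion in about 1 in 20 groups of a gene taken at random, a rate that does not hold for Ephx2, which was chosen for the shape of these same values, so these are a description and no test.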

How the results depend on the processing

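No probe set was called in any fit, so no call of limma changed. The directions of small or split differences did. Over the fits that left out 1 rat, the log2 difference from vehicle ran from -0.032 to 0.040 for Ephx1 at 0.07 mg/kg and from -0.036 to 0.025 at 68 mg/kg. For Ephx2 it ran from -0.36 to 0.31 at 0.69 mg/kg, from -0.19 to 0.45 at 6.88 mg/kg and from -0.34 to 0.36 at 680 mg/kg, and its trend from -0.055 to 0.058 per dose rank. The change of Ephx2 minus that of Ephx1 ran from -0.31 to 0.36, from -0.085 to 0.54 and from -0.39 to 0.31 at these 3 doses. A repeated quantile normalisation gave 0.0014 for Ephx1 at 68 mg/kg. Differences of medians were -0.027 for Ephx1 at 0.07 mg/kg, and -0.13, -0.23, -0.095 and -0.25 for Ephx2 at 0.07, 0.69, 6.88 and 680 mg/kg. With the replicate block, Ephx2 at 68 mg/kg was 0.65 and 0 probe sets were called. No pairing by replicate number was seen: deviations from group means had a median r of -0.02 over 85 pairs of the same number, 8 of them over 0.1. Over 425 pairs of other numbers the median r was 0.002, and 66 were over 0.1. Whether rats of the same number shared a batch was not tested. The causes were not tested. The correlations of Ephx1 with Acp1 and Srsf10 were 0.35 and 0.34 without group centring. The Ephx2 gap was at least 1.91 in its 3 alternatives. The number of arrays limits the precision, and 1 probe set per gene leaves the split of Ephx2 without a second measurement. Values from another probe set of Ephx1 or Ephx2 were not computed, since each had 1. The correlation of both genes over all 35 arrays was not used because Ephx2 fell into separate clusters.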
